A study of Mus musculus with 2 samples.

Results

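CD4 T cells with a high interferon signature were described in lymph node libraries from mice that carried a heart graft. They were chosen from unique molecular identifier (UMI) counts, in which each captured RNA molecule counts once. A cell barcode was kept if it had at least 200 genes and at most 10% of its UMIs from mitochondrial genes. A member had at least 1 UMI of Cd3d, Cd3e and Cd3g together, at least 1 UMI of Cd4, and none of Cd8a, Cd8b1, Cd79a or Foxp3. It also had at least 3 UMIs summed over 5 interferon-induced genes, Ifit1, Ifit3, Isg15, Irf7 and Usp18, and this sum is called the interferon sum. The rule found 292 members among 1240 CD4 T cells, 10063 kept barcodes and 11467 barcodes in all. The allogeneic library held 148 of them and the syngeneic library 144. CD4 T cells that passed the same gates with an interferon sum of at most 1 are called interferon-low cells, and there were 80 in the allogeneic and 720 in the syngeneic library. The 34 allogeneic and 114 syngeneic CD4 T cells with a sum of 2, just outside the threshold, belong to neither set.

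The allogeneic library came from the lymph nodes of Balb/c mice with a heart from a C57BL/6 donor, and the syngeneic library from Balb/c mice with a heart from a Balb/c donor. Mice were 6 to 8 weeks old, and immune cells were captured with a droplet-based 3' kit that counts the ends of transcripts. There was 1 library per group, and the labels do not say how many mice stand behind each. A difference between the libraries therefore cannot be told apart from a difference between these 2 preparations, and no p-value was made. Intervals are exact 95% intervals, binomial for shares and Poisson for ratios, and cover counting error only. The libraries held 8415043 (allogeneic) and 46486632 (syngeneic) UMIs, and syngeneic barcodes began at 3447 UMIs whereas allogeneic ones began at 150. Members had a median of 3404 UMIs in the allogeneic and 4578.5 in the syngeneic library, with 572963 and 770072 UMIs in all. A floor of 3 UMIs thus stood at 5.24 and 3.90 CPM in members, where CPM scales a count to the UMI total of its set of cells, and at 11.1 and 0.866 CPM in interferon-low cells.

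Type I interferons are cytokines that nearly every cell can sense through the paired receptor chains Ifnar1 and Ifnar2. The receptor activates the kinases Jak1 and Tyk2, and the signal reaches a transcription factor complex that contains Irf9 and binds the interferon-stimulated response element in gene promoters. The induced genes include antiviral effectors such as the Ifit proteins, the ubiquitin-like protein Isg15, the transcription factor Irf7 that amplifies interferon production, and Usp18, which removes Isg15 from proteins and dampens the receptor. In resting T cells, low interferon tone is known to set a level of these genes that varies from cell to cell.

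Promoter sequence was read for the genes that choose the cells and for 3 genes with high ratios outside the rule (Ifi44, Ifit3b and Phf11b), to show the element on which the signature is known to rest. The motif was GAAA, any 2 bases and GAAA again (TTTC, any 2 bases and TTTC on the other strand), searched on both strands, with overlapping matches kept, in windows of 300 bases (250 before and 50 after the start) of RefSeq genes on GRCm38.p6. Of the 5 rule genes 4 had a window and 3 of them held the motif. Of the 3 others, Ifit3b and Phf11b held it and Ifi44 did not; Ifi44 is not printed. Each line gives the 250 bases before the start, 5′ to 3′ on the strand of the gene, with motif matches in capitals.
Ifit1 (chr19:34640639-34640888, plus strand): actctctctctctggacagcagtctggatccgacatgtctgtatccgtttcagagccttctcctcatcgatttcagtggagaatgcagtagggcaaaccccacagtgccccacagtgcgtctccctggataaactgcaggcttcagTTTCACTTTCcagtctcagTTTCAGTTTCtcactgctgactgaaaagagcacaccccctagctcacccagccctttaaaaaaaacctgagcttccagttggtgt
Ifit3 (chr19:34583279-34583528, plus strand): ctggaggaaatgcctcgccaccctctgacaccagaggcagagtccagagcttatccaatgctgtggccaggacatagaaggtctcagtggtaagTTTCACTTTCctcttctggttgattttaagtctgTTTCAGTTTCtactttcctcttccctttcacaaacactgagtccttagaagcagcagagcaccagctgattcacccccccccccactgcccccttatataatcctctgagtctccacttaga
Ifit3b (chr19:34607707-34607956, plus strand): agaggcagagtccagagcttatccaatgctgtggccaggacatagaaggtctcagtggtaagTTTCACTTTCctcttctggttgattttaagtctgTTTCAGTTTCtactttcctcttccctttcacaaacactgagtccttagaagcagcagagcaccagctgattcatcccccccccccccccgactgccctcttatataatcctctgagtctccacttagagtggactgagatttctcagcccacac
Isg15 (chr4:156200819-156201068, minus strand): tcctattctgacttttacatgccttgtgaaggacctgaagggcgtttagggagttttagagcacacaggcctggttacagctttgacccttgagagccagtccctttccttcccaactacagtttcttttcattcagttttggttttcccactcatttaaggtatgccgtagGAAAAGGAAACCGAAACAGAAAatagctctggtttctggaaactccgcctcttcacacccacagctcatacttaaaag
Irf7 (chr7:141266425-141266674, minus strand): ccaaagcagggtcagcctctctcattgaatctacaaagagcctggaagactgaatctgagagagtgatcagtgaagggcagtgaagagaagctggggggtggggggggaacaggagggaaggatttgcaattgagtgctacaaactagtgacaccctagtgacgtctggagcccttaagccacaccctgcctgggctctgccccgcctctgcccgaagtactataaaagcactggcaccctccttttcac
Phf11b (chr14:59341331-59341580, minus strand): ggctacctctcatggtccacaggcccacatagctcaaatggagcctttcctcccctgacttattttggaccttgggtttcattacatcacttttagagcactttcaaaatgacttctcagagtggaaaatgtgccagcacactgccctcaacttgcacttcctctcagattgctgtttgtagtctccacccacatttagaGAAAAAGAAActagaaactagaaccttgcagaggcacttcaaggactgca

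In the Ifit1 window the matches began 104 and 85 bases before the start, and in the Ifit3 window 156 and 122 bases before it. Ifit3b, a near-identical copy of Ifit3 that lies on the same chromosome, held its matches 188 and 154 bases before the start. The Isg15 window held 3 overlapping matches that began 78, 72 and 66 bases before the start, and the Phf11b window held 1 match at 50 bases. The Irf7 and Ifi44 windows did not hold these letters, which says nothing of other forms of the element or of other windows. Of the 48 windows found for type I interferon genes outside the rule, 24 (50%) held the motif, as did 10 of 17 (58.8%) for interferon-gamma response genes and 3 of 8 (37.5%) for MHC class I genes. None of 9 windows of naive T cell genes and none of 3 windows of a second panel of interferon genes (described with the cells it chose) held it, and over all 27025 genes with a window the share was 3.99%. A match is a description of the letters and not evidence of binding.

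Members made up a far larger share of the CD4 T cells in the allogeneic than in the syngeneic library. The share was 56.5% (148 of 262 cells, interval 50.2 to 62.6%) in the allogeneic and 14.7% (144 of 978, 12.6 to 17.1%) in the syngeneic library, and the counting intervals did not overlap. The whole distribution of the interferon sum was placed higher, with a mean of 4.39 against 1.39 UMIs per cell. A sum of 0 was found in 12.6% of allogeneic and 44.9% of syngeneic CD4 T cells. A sum of 8 or more was found in 19.1% (50 cells, 14.5 to 24.4%) and 3.27% (32 cells, 2.25 to 4.59%). Just inside the threshold, 48 allogeneic and 84 syngeneic members had a sum of 3 or 4.

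**Figure D1:**
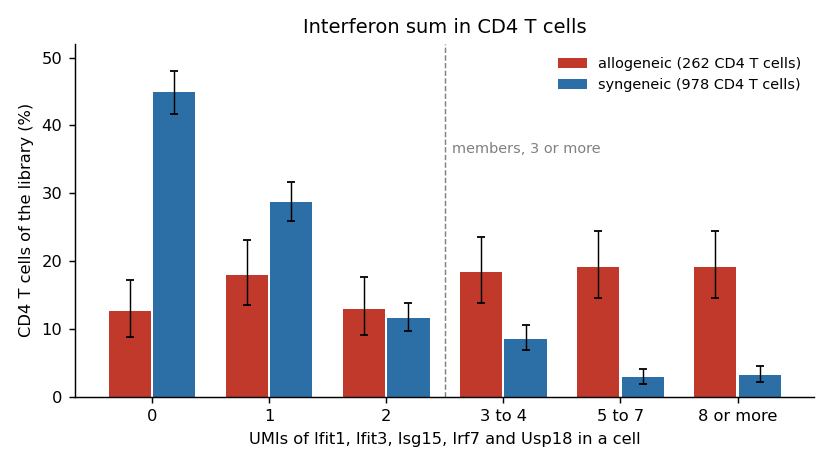
Share of CD4 T cells of each library (vertical axis, %) by interferon sum (horizontal axis, UMIs of the 5 rule genes in a cell), with exact binomial 95% intervals as error bars and the threshold as a dashed line. Syngeneic cells gather at a sum of 0 (44.9%), whereas allogeneic cells are spread more evenly, with 19.1% at 8 or more.

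The threshold is a number of UMIs, so shares were also taken at 1 depth. With each cell thinned to 1500 UMIs, 34.1% of allogeneic cells (84 of 246, 16 shallower cells left out) and 3.99% of syngeneic cells (39 of 978) reached the threshold. Among cells with at least 3447 UMIs the shares were 67.3% (72 of 107) and 14.7%. Single UMIs are a loose gate. Of barcodes with a Cd79a UMI, 49.5% (245 of 495, allogeneic) and 85.8% (2637 of 3073, syngeneic) also carried a Cd3 UMI, at median depths of 2490 and 5234 UMIs. The remaining Cd79a barcodes, without Cd3, are called B cells here. A Cd4 UMI was found in 2% of allogeneic and 5.73% of syngeneic B cells (median 2246.5 and 4164.5 UMIs), against 34.9% and 54.0% of T cells without Cd8 (3183 and 4354 UMIs). The difference between libraries was not limited to CD4 T cells. CD8 T cells were interferon-high in 68.9% (allogeneic) and 16% (syngeneic) of cells, and in 35.8% and 3.65% after thinning. B cells reached 40.4% and 7.34%, or 26.8% and 1.15% after thinning. Among Foxp3-positive CD4 T cells the shares were 57.1% of 28 and 18.6% of 59 cells, and 21.4% and 1.69% after thinning.

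Cd3 and Cd4 were used by the rule, so their levels only describe the choice. Members had a median of 8 (allogeneic) and 13 (syngeneic) Cd3 UMIs, and only 3 in each library rested on a single Cd3 UMI, while the median of Cd4 was 1 UMI in both. Of T cell genes that the rule did not use, Cd28, a costimulatory receptor, had a UMI in 45.9% and 58.3% of members, and Cd5, an inhibitor of T cell receptor signals, in 20.3% and 43.1%. Other lineages were present in some members: 4 of 148 allogeneic and 17 of 144 syngeneic members carried at least 10 UMIs of B, natural killer, myeloid, dendritic or stroma markers, or 50 of neutrophil or erythroid markers. These barcodes held 7.95% and 17.8% of the members' UMIs, and the 17 syngeneic ones had a median of 7287 UMIs against 4365 in the rest. In the interferon-low sets 2 of 80 and 24 of 720 cells were such barcodes, and 1 allogeneic low cell held 9415 neutrophil UMIs. Results are given for all members and, where the value moves, without these barcodes. Without them the shares of members were 56.5% and 13.6%. Of 66 barcodes present in both libraries 2 belonged to members, and no CD4 T cell had the same barcode in both.

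The rule genes themselves describe the choice and carry no test. In the allogeneic library members held 454 CPM of Ifit1, 312 of Ifit3, 403 of Isg15, 426 of Irf7 and 213 of Usp18, and interferon-low cells held 29.5, 25.8, 36.9, 62.7 and 18.5 CPM in that order. Syngeneic members held 226, 104, 364, 277 and 136 CPM, and syngeneic interferon-low cells 8.08, 4.33, 23.7, 28.9 and 16.2. Of allogeneic members 111 of 148 had UMIs of 3 or more of the 5 genes, and of syngeneic members 85 of 144. The genes differed in how often they were seen. Irf7 had a UMI in 78.4% and Ifit1 in 76.4% of allogeneic members, whereas in syngeneic members Isg15 led with 75% and Ifit1 followed Irf7 at 59.0%. Ifit3 was seen in 57.4% of allogeneic but 33.3% of syngeneic members. Rule genes were also seen in the 1071 allogeneic barcodes under 200 genes, at 475 CPM. Haemoglobin took 64.4% of the UMIs of those barcodes and a median of 0.366% in members, and what those barcodes are was not tested.

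A panel of 5 other interferon genes was used with the same threshold to see which cells it would choose. Rtp4, Zbp1, Oasl2, Xaf1 and Samd9l chose 146 allogeneic cells, of which 106 were members, 71.6% of the members and 72.6% of the panel's cells. Of syngeneic cells the panel chose 257, and the 92 shared ones were 63.9% of the members and 35.8% of the panel's cells. Members with no UMI of the panel numbered 6 (allogeneic) and 12 (syngeneic). Genes of the panel with enough UMIs were higher in members of both libraries. Rtp4, a chaperone of receptors that interferon induces, stood at 342 CPM in members and 140 in interferon-low cells of the allogeneic library, and at 192 and 53.7 in the syngeneic. Zbp1, a sensor of left-handed nucleic acid helices, stood at 353 and 129, and at 210 and 98.4. Xaf1, a pro-apoptotic factor, stood at 271 and 103, and at 144 and 39.5. Samd9l, a growth inhibitor, stood at 295 and 159, and at 179 and 104, while Oasl2 had too few UMIs (2 in each set of members).

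Type I interferon response genes outside the rule were higher in members than in interferon-low cells of the same library nearly throughout. The list has 59 genes, of which 54 are in the files. In the allogeneic library 48 had at least 10 UMIs over both sets and all 48 were higher in members, with a median log2 ratio of 1.24, where the median of all genes was 0.06. Of the 28 list genes with at least 50 UMIs, 15 were at least 2-fold higher, where 3.61% of 2269 genes tested were. Among syngeneic cells 49 of 51 were higher and 2, Pnpt1 and Gm4951 (named for being the exceptions), were lower, with a median of 0.97 against 0.02 for all genes. Of 37 with 50 UMIs, 16 were at least 2-fold higher, where 2.1% of 6476 genes were. Without the barcodes of other lineages the medians were 1.14 and 1.03, and 15 of 28 and 16 of 36 were at least 2-fold higher, where 2.77% and 1.18% of genes were. Since the cells were chosen by genes of the same response, these values describe what travels with the rule. The counts also depend on which genes the list holds, and it was chosen with earlier results of these data known. Ifi27, interferon-inducible by name, is not on it and was lower in allogeneic members (log2 ratio -1.42).

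Ifi44, an antiviral protein induced by interferon, was among the genes with the highest ratios in both libraries. It stood at 168 CPM in allogeneic members and 18.5 in interferon-low cells, and at 83.1 and 6.93 in the syngeneic library. The log2 ratios were 3.18 (1.91 to 4.84) and 3.58 (2.89 to 4.33). It had a UMI in 33.1% of allogeneic and 22.9% of syngeneic members, against 5.0% and 3.19% of interferon-low cells. Ifit3b stood at 180 and 33.2 CPM, and at 41.6 and 5.19, with ratios of 2.44 and 3.0. Reads of Ifit3 and Ifit3b can be split between these copies, so each is uncertain alone. Since Ifit3 is a rule gene, the ratio of Ifit3b may not be independent of the choice of cells.

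Effectors of several kinds were higher together. Isg20, an exonuclease that degrades viral RNA, stood at 131 CPM in allogeneic members against 44.3 in interferon-low cells, and at 89.6 against 18.2 in the syngeneic library, log2 ratios of 1.56 and 2.3. Phf11b stood at 192 and 44.3, and at 134 and 60.6, ratios of 2.12 and 1.14. Pyhin1, of the DNA-sensing Ifi200 family, stood at 106 and 25.8, and at 127 and 58.6, ratios of 2.04 and 1.12. The intervals of both genes overlapped between libraries. Bst2, the tetherin that holds budding virus at the membrane, had a UMI in 58.1% of allogeneic and 63.9% of syngeneic members, and in 31.2% and 31.4% of interferon-low cells. Its syngeneic ratio of 1.90 was 1.47 without barcodes of other lineages, where 1 such member held 37 of its 268 UMIs, and the allogeneic ratio was 1.37.

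Abundant members of the list were seen in most members. Ifi27l2a stood at 1789 CPM against 749 in the allogeneic and 2323 against 965 in the syngeneic library, nearly the same log2 ratio of 1.26 and 1.27, and was seen in 93.9% and 100% of members. Slfn1, of the Schlafen family that restrains T cell growth, stood at 501 against 199 and 279 against 157, and was seen in 81.8% of allogeneic members but 38.8% of interferon-low cells. Its ratios were 1.33 and 0.83. Some abundant genes of the list differed little. Ms4a4b, a membrane protein of T cells, differed by 0.72 and 0.27, and Shisa5 by 0.47 and 0.09 on the log2 scale. The plot of the 28 list genes by library shows the full order.

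**Figure D2:**
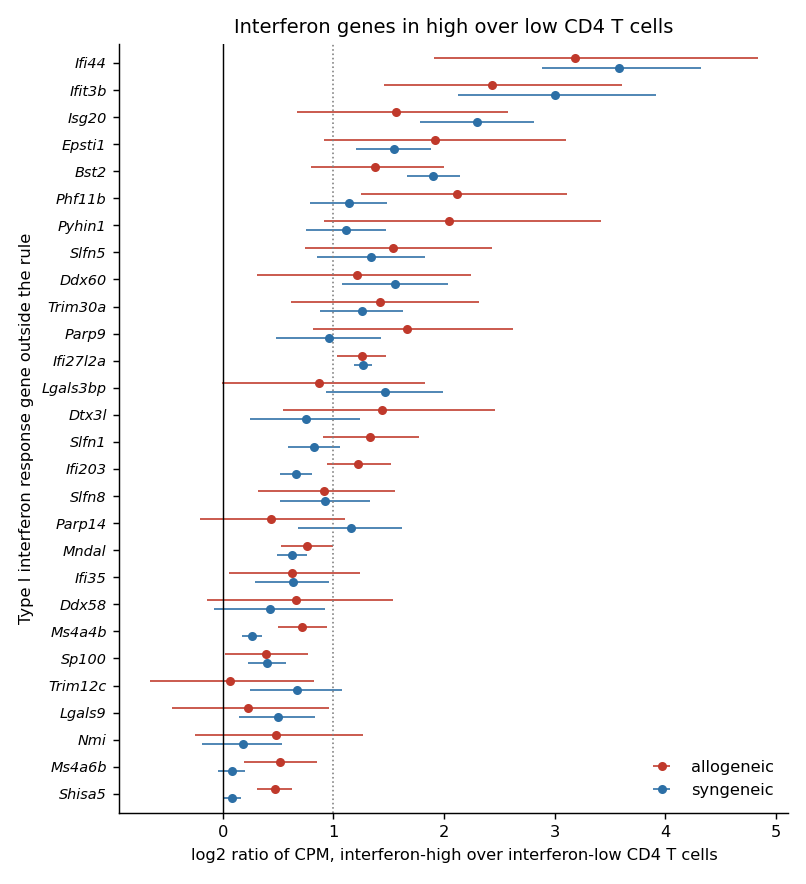
Log2 ratio of CPM in interferon-high over interferon-low CD4 T cells (horizontal axis) for type I interferon genes outside the rule with at least 50 UMIs in both libraries (vertical axis), with exact Poisson 95% intervals, a solid line at 0 and a dotted line at 2-fold. All points lie above 0, some with intervals that cross it, with Ifi44 highest at 3.18 and 3.58 in the allogeneic and syngeneic library.

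The summed level of the list was higher at each higher step of the interferon sum with sums of 3 and 4 pooled. Without barcodes of other lineages its summed level in the allogeneic library was 6656 CPM in cells with a sum of 0, 9497 at a sum of 2, 10551 at 3 or 4, 11662 at 5 to 7 and 16825 at 8 or more. The same steps were 7798, 8574, 10180, 14185 and 18199 CPM in the syngeneic library. Thinned to 1500 UMIs, cells with a sum of 0 held 7548 and 8235 CPM, and cells with 3 or 4 held 13705 and 15556. Taken apart, thinned allogeneic cells with a sum of 4 held 15707 CPM, no less than the 15564 CPM of those with 5 to 7. The highest thinned step rests on 5 allogeneic and 4 syngeneic cells. In single cells the list took a median of 1.20% of the UMIs of allogeneic members and 1.17% of syngeneic ones, with interquartile ranges of 0.921 to 1.59% and 0.885 to 1.55%. Interferon-low cells gave 0.736% and 0.761%.

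**Figure D3:**
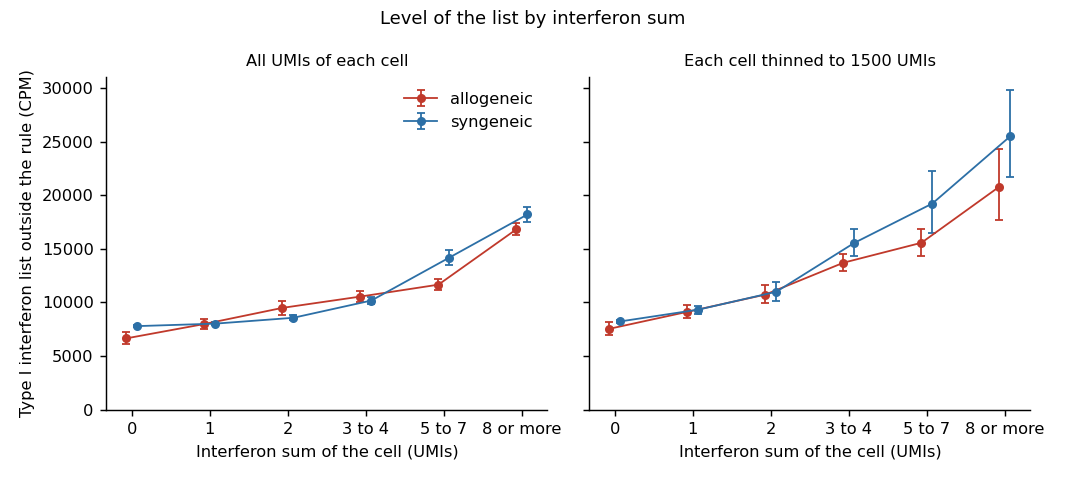
Summed level of the type I interferon list outside the rule (vertical axis, CPM) by interferon sum of the cell (horizontal axis, UMIs), without barcodes of another lineage, for all UMIs (left) and for cells thinned to 1500 UMIs (right), with exact Poisson 95% intervals. With 3 and 4 pooled, the level is higher at each step. On the left it reaches 16825 CPM (allogeneic) and 18199 CPM (syngeneic) at a sum of 8 or more. On the right it reaches 20800 CPM (5 allogeneic cells) and 25500 CPM (4 syngeneic cells).

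Genes of the receptor and its signalling chain showed small differences between members and interferon-low cells. Of 16 genes, 10 were higher and 5 lower among the 15 measured in the allogeneic library, with a median log2 ratio of 0.16, and none reached 2-fold. In the syngeneic library 12 of 16 were higher, with a median of 0.37, which was 0.12 without barcodes of other lineages. Irf9, the DNA-binding part of the complex that type I interferon activates, stood at 164 CPM against 137, and at 117 against 75.3. Ifnar1 stood at 90.8 against 84.9 CPM in the allogeneic and 63.6 against 56.9 in the syngeneic library, and Ifnar2 at 41.9 against 44.3 and 53.2 against 36.4. The receptor chains were named after their values were seen, and their intervals included equal levels except for Ifnar2 in the syngeneic library (ratio 0.55, 0.0045 to 1.07), which was -0.01 without barcodes of other lineages. Jak1 stood at 375 against 391 and 334 against 350, and Ifngr1, a chain of the interferon-gamma receptor, differed by -0.17 and -0.10. Irf8, a factor of B and dendritic cells, was 187 against 36.4 CPM in the syngeneic library (ratio 2.36), where members also held 275 CPM of dendritic markers, and its ratio was 0.19 without barcodes of other lineages.

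Interferon-gamma response genes were also higher in members, by less than the type I list. These are guanylate-binding proteins and immunity-related GTPases, which attack intracellular microbes, and parts of the peptide-loading machinery. All 21 measured in the allogeneic library and all 23 in the syngeneic were higher, with median log2 ratios of 0.89 and 0.72, and 6 of 15 and 3 of 19 with 50 UMIs were at least 2-fold higher, where 3.61% and 2.1% of all genes were. Igtp stood at 260 against 103 CPM, and at 265 against 151, ratios of 1.33 and 0.81. Gbp4 stood at 260 against 95.9, and at 218 against 144, ratios of 1.44 and 0.60. The peptide-loading genes differed less. Tapbp, the tapasin of the loading complex, stood at 487 against 262 and 269 against 186, and Psmb8, a subunit of the immunoproteasome, had ratios of 0.58 and 0.37. Many of these genes respond to both interferon types, so the list does not tell them apart. Once barcodes of other lineages were left out, 20 of 21 and 21 of 22 were higher. The summed level of the list went from 2555 CPM at a sum of 0 or 1 to 4935 at 8 or more in the allogeneic and from 2597 to 4704 in the syngeneic library, again without those barcodes.

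MHC class I genes, which present peptides to CD8 T cells, were higher in all 8 cases in both libraries, by medians of 0.29 and 0.20 on the log2 scale. Without barcodes of other lineages the medians were 0.13 and 0.07, with 7 and 6 of 8 higher. The non-classical gene H2-T23 stood apart at 764 against 380 CPM, and at 484 against 318, ratios of 1.01 and 0.61. H2-D1, a classical gene, differed by 0.17 and 0.11. Reads of class I genes can be shared among copies, and the mm10 build named in the submitters' processing notes carries C57BL/6 alleles whereas the recipients were Balb/c, so the levels of single class I genes are uncertain.

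Ly6 surface antigens, which mark activated T cells and answer to interferon, gave a split result. Ly6a (Sca-1) stood at 675 CPM in allogeneic members and 365 in interferon-low cells, and was seen in 75% and 65.0% of them. In the syngeneic library it stood at 178 and 32.0 CPM and was seen in only 20.8% and 11.9%. The ratios were 0.89 and 2.47, and the latter was 1.14 without barcodes of other lineages, and 1 of those held 55 of the 137 UMIs. Ly6c2 in the syngeneic library stood at 387 against 29.1 CPM (ratio 3.73), but at 22.1 against 25.1 without those barcodes (ratio -0.19). Its difference thus lay in a few barcodes: 1 member held 147 of 298 UMIs.

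**Figure D4:**
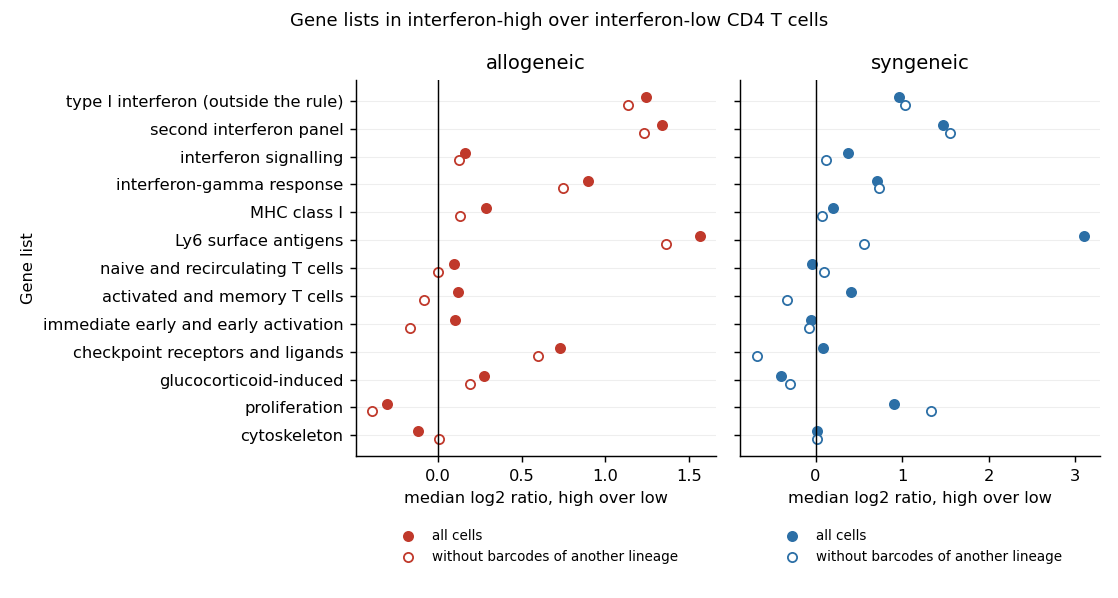
Median log2 ratio of each gene list in interferon-high over interferon-low CD4 T cells (horizontal axis, with a separate scale for each library) for all cells (filled) and without barcodes of another lineage (open). Type I interferon medians lie between 0.97 and 1.24, whereas the syngeneic Ly6 median is 3.10 with and 0.56 without those barcodes.

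Gene lists of T cell state were mixed. Checkpoint genes had a median of 0.73 in the allogeneic and 0.09 in the syngeneic library (0.60 and -0.68 without barcodes of other lineages). These genes had few UMIs, 69 in 78 allogeneic interferon-low cells without those barcodes. Ctla4 belongs to the list and was lower in allogeneic members (-0.94). Genes of naive and recirculating T cells gave median log2 ratios of 0.10 (7 of 12 higher) and -0.04 (4 of 12 higher), and none reached 2-fold. Ccr7, which guides cells into the lymph node, stood at 517 against 424 CPM in the allogeneic and 406 against 338 in the syngeneic library, where its ratio of 0.27 was -0.19 after thinning. Lef1 and Tcf7, transcription factors of naive T cells, stood at 511 against 535 and 405 against 284 (allogeneic), and at 501 against 547 and 260 against 263 (syngeneic). Il7r, the receptor for a survival cytokine, stood at 609 against 587 and at 209 against 279. The summed level of the list was 5480 CPM at a sum of 0 or 1 and 5228 at 8 or more (allogeneic), and 4606 and 5186 (syngeneic), without barcodes of other lineages.

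Genes of activated and memory T cells had medians of 0.12 (9 of 17 higher) and 0.40 (13 of 19 higher), and of -0.08 and -0.33 without barcodes of other lineages. Single barcodes carried some of these genes. The chemokine Ccl5 is one: in the syngeneic library it stood at 877 CPM in members and 98.4 in interferon-low cells, but 1 member held 303 of 675 UMIs, and without those barcodes it stood at 56.8 and 61.2. S100a6, a calcium-binding protein of memory T cells, went the other way: 203 against 151 CPM with all barcodes (ratio 0.42), and 14.2 against 129 without them (ratio -3.19, -4.32 to -2.25, where 1.71% of genes were at least 2-fold lower), from 9 UMIs in 7 members and 427 UMIs in 68 interferon-low cells. Its share of cells, 5.51% against 9.77%, differed less than its level, and single low cells held up to 40 UMIs. The ratio was -0.43 without the top 5% of cells by UMIs and 0.90 after thinning. Myc, a driver of T cell growth, was lower in syngeneic members, 29.9 against 67.8 CPM (ratio -1.18, -1.87 to -0.56), and seen in 13.9% against 22.8% of cells, where 1.24% of genes were at least 2-fold lower. With the second panel choosing the cells that ratio was 0.061. In allogeneic members Myc stood at 48.9 against 33.2 CPM, with an interval that included equal levels.

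Ctla4, an inhibitory receptor, was lower in allogeneic members, 55.9 against 107 CPM (ratio -0.94, -1.71 to -0.16), and seen in 13.5% against 18.8% of cells. Among genes with 50 UMIs in that library 1.9% were at least 2-fold lower, and Ctla4 reached 2-fold (-1.12) without barcodes of other lineages, where 0.389% of genes did. Its direction was not stable: the ratio was 0.82 (-0.62 to 2.58) among cells with at least 3447 UMIs and -0.08 with the second panel choosing the cells. Il2, the growth cytokine of T cells, had few UMIs: 38 in 36 of 148 allogeneic members against 6 in 6 of 80 interferon-low cells, or 66.3 against 22.1 CPM, and 27.3 against 19.9 CPM in the syngeneic library. The allogeneic ratio was 1.58 (0.33 to 3.12), and the syngeneic one was 0.45 (-0.33 to 1.18). The allogeneic ratio was 0.036 after thinning and 0.16 with the second panel. Ifi27, an interferon-inducible gene by name, is not on the type I list. It was lower in allogeneic members at 59.3 against 159 CPM, and stood at 165 against 162 in the syngeneic library.

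Proliferation genes were higher in syngeneic members, carried by few cells. All 10 were higher, with a median ratio of 0.91 and 4 of 8 at least 2-fold, where 2.1% of all genes were. Stmn1 stood at 157 against 54.8 CPM (ratio 1.52), but its ratio was -1.52 with sums of at least 5 against 0 and -0.31 without the top 5% of cells by UMIs. Without barcodes of other lineages, 4 of 127 syngeneic members had at least 10 UMIs of the list and held 68.2% of its UMIs, against 9 of 696 interferon-low cells (3.15%, 0.865 to 7.87%, and 1.29%, 0.593 to 2.44%). Those members with a sum of 3 or 4 held 782 CPM of the list, and those with 8 or more held 181. In the allogeneic library none of 144 members reached 10 UMIs, and 0 of 78 interferon-low cells did. Taking 3 cells as the limit that a count of 0 allows, the shares could be up to 2.08% and 3.85%, and the exact binomial upper bounds were 2.53% and 4.62%.

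The genes with the widest differences between members and interferon-low cells mixed interferon genes with other lineages. In the allogeneic library the widest were lower in members and are described by 2 genes. BC117090 had 249 UMIs in 1 such cell and 0 in members, and Ltf, a neutrophil granule protein with 148 of 149 UMIs in 1 low cell, stood at 3.49 against 550 CPM (ratio -7.30). On the higher side Saa3, an acute-phase protein, led at 4.58, but 1 member held 1100 of its 1164 UMIs. In the syngeneic library the list of highest ratios held Fscn1, Mpeg1 and Gzma, markers of dendritic, myeloid and cytotoxic cells. Without barcodes of other lineages, 7 of the 10 highest allogeneic genes were Ifi44, Ifit3b, Phf11b, Pyhin1, Epsti1, Parp9 and Slfn1, all of the type I list. In the syngeneic library Ifi44, Isg20, Xaf1, Rtp4, Ddx60, Pml and Slfn5 stood among the highest 10, beside the proliferation genes Hist1h2ap, Stmn1 and Top2a. Of the Hist1h2ap UMIs, 74 of 121 lay in 1 member. Pml, which scaffolds antiviral nuclear bodies, stood at 52.1 against 17 CPM.

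Members of the allogeneic library were then set beside those of the syngeneic library, a comparison of 2 libraries that differ in depth. The member sets also differ in interferon sum: 48 of 148 allogeneic and 84 of 144 syngeneic members had a sum of 3 or 4. The type I list outside the rule was higher in 36 of 51 measured genes, with a median log2 ratio of 0.37 where all genes gave 0.03, and 6 of 33 with 50 UMIs were at least 2-fold higher and 1 lower, where 6.47% and 4.15% of 3372 genes were. With barcodes of other lineages left out 6 of 33 were at least 2-fold higher and 0 lower, where 6.62% and 3.07% of genes were. This direction did not hold at all depths. With cells chosen after thinning to 1500 UMIs the median was -0.26, and with members at a sum of 5 or more it was 0.048. At matched sums after thinning, without barcodes of other lineages, it was 0.17 at 3 or 4 and -0.12 at 5 to 7. Sums of 3 and 4 taken apart gave medians of -0.21 and -0.023. The summed level of the list was lower in the allogeneic cells of both steps. It was 13705 against 15556 CPM at 3 or 4, and 15564 against 19222 CPM at 5 to 7. Single genes went both ways. Ifit3b was 180 against 41.6 CPM (ratio 2.11), Slfn5 161 against 74.0 (1.12), Ifi44 168 against 83.1 (1.01) and Slfn1 501 against 279 (0.84). The first 3 depended on depth and threshold: Ifit3b was 0.77 and Slfn5 0.0086 after thinning, and Ifi44 was 0.35 with sums of at least 5. Ifi27l2a was 1789 against 2323 (-0.38) and Ms4a4b 1344 against 1778 (-0.40).

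In interferon-low cells the type I list was higher in 30 of 48 measured genes of the allogeneic library, with a median of 0.23 and 4 of 34 at least 2-fold higher and 5 lower, where 7.48% and 8.83% of genes were. Leaving out barcodes of other lineages, the counts were 5 and 4 of 34, where 8.17% and 7.75% of genes were. Ifit3b was 33.2 CPM in allogeneic and 5.19 in syngeneic interferon-low cells, Xaf1 103 against 39.5 and Rtp4 140 against 53.7, while Ifi27l2a was 749 against 965 and Ms4a4b 816 against 1479. The direction thus varied from gene to gene below the threshold as well. Interferon-gamma response genes were higher in 14 of 21 allogeneic against syngeneic members, with a median ratio of 0.25, and Psmb9, an immunoproteasome subunit, was lower (250 against 447 CPM, -0.84). This list too varied at matched interferon sums, after thinning and without barcodes of other lineages. At a sum of 3 or 4, 6 of 15 genes were higher (median -0.12), and at 5 to 7, 2 of 9 were (-0.53, from 26 and 6 cells). Taken apart, sums of 3 and 4 gave medians of 0.17 and 0.40. MHC class I genes had a median ratio of 0.53, from B2m at -0.18 to H2-Q6, named after its value was seen, at 1.62. This list was higher in allogeneic interferon-low cells too. Without barcodes of other lineages it summed there to 17153 CPM, against 12425 CPM in syngeneic ones.

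The surface antigen Ly6a and the signalling inhibitor Socs3 differed between the libraries in members and in interferon-low cells. Without barcodes of other lineages Ly6a stood at 730 CPM in allogeneic and 72.6 in syngeneic members, and at 418 and 33.0 in interferon-low cells. Socs3, which blocks cytokine receptors, stood at 272 and 41.6 CPM in members of the allogeneic and syngeneic library, and at 244 and 48.8 in interferon-low cells. Ifngr1 stood at 318 and 101 CPM in members, and at 358 and 109 in interferon-low cells. For Socs3 and Ifngr1 the members of a library lay close to its interferon-low cells.

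Gene groups outside the interferon response also differed between the members of the libraries. Genes induced by glucocorticoids had a median ratio of 2.80 in members, with 7 of 7 measured genes higher, and of 2.31 in interferon-low cells. Fkbp5, a regulator of the glucocorticoid receptor, stood at 164 and 6.49 CPM in members, Tsc22d3 at 829 and 106, and Txnip at 1290 and 186. The cytoskeletal genes were lower in all 8 cases, with a median of -0.95, and Tmsb4x, which binds actin monomers, stood at 5688 and 17162 CPM. Ctla4 stood at 55.9 and 3.90 CPM in members, and the syngeneic value lies at the floor of 3 UMIs. Cd200, a ligand of an inhibitory receptor, stood at 148 and 36.4 CPM. Junb, an immediate early factor, stood at 489 and 165 CPM, and Il7r at 609 and 209. Lgals1, a lectin of activated T cells, was lower in allogeneic members at 112 and 496 CPM, or 64.5 and 242 without barcodes of other lineages. Id3 was also lower, at 26.2 and 94.8 CPM with all barcodes. The lists of several of these genes differed the same way in interferon-low cells, without barcodes of other lineages. Allogeneic and syngeneic sums there were 2405 and 1038 CPM for immediate early genes and 294 and 110 for checkpoint genes. Naive T cell genes summed to 5480 and 4606 CPM, and activated and memory genes to 1416 and 1775.

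RNA of other cells differed between the libraries beside these values. Members of the allogeneic library held a median of 13 erythroid and 4 neutrophil marker UMIs per cell, and members of the syngeneic library a median of 0 of each, with S100a8, Retnlg, Csf3r, Ltf and Camp at 0. B cell markers without Cd79a summed to 312 CPM in allogeneic and 2621 CPM in syngeneic members, or 284 and 720 CPM without barcodes of other lineages, and H2-Ab1, of MHC class II, was 34.1 against 163 CPM there. Barcodes that met every other gate but carried a Cd79a UMI numbered 29 (allogeneic) and 398 (syngeneic), of which 10 and 69 reached an interferon sum of 3. T cells that met every gate but Cd4 numbered 481 and 814, with 226 (47.0%) and 87 (10.7%) at a sum of 3 or more. The part of other cells' RNA in the differences between libraries was not tested.

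**Figure D5:**
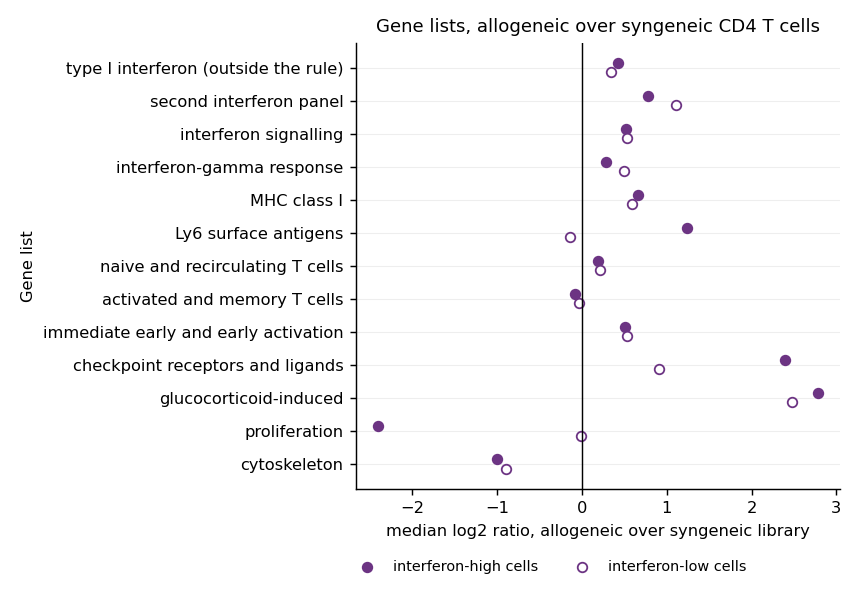
Median log2 ratio of each gene list in allogeneic over syngeneic CD4 T cells (horizontal axis) for interferon-high (filled) and interferon-low (open) cells, without barcodes of another lineage. Glucocorticoid-induced and cytoskeletal genes sit at like places in both sets (2.78 and 2.47, -1.0 and -0.90), and the proliferation medians are further apart (-2.40 in members and -0.004 in interferon-low cells). The proliferation value of members rests on few cells, since 4 of 127 syngeneic members held 68.2% of the list's UMIs.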

How the data were processed

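The authors deposited UMI counts per gene and barcode for both libraries as raw whole numbers. Per the submitters' processing notes Cell Ranger 2.2.0, STAR, Seurat 2.3.4 and mm10 were named, with no role given. No label says how barcodes were selected, and the lowest barcode held 150 UMIs in the allogeneic and 3447 in the syngeneic library. The 27998 gene entries were summed to 27933 symbols (56 had several entries) with python 3.11.15, numpy 2.4.6, pandas 2.3.3 and scipy 1.17.1. UMIs were summed over the cells of a set and given as CPM of that set. A list member counted as measured with 10 UMIs over both sets, and 2-fold calls needed 50. Intervals are exact. The members and gene lists were chosen with earlier results of these data known. Named genes were, per comparison, the 10 highest and 10 lowest ratios with an interval that excludes 0 among genes with 50 UMIs and 50 CPM (without rule, mitochondrial, ribosomal, receptor and immunoglobulin genes), and up to 6 per list by CPM in members; genes outside this rule are Ifnar1, Ifnar2, H2-Q6, Pnpt1, Gm4951, Oasl2 (in the panel) and Csf3r (in the neutrophil markers). No doublet caller was run; leaving out the top 5% of cells by UMIs and, chosen after seeing the data, barcodes with markers of another lineage were alternatives. Thinning drew 1500 UMIs per cell with a fixed seed. The computation of ratios was tested on simulated Poisson sums. These leave out the gathering of a gene's UMIs in single cells, so the test does not cover that spread.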

Additional observations from a re-analysis of the deposited data

Results flagged for a closer look

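UMIs of the 5 rule genes appeared in data that enter no comparison. The 1071 allogeneic barcodes under 200 genes held 259 UMIs of these genes among 545285, or 475 CPM (419 to 536), which is above the limit that a count of 0 allows. The kept barcodes of that library held 1132 CPM. No syngeneic barcode had under 200 genes, so there is no matching value.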

How the results depend on the processing

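No paired analysis was possible because each group has 1 library. The share of members was higher in the allogeneic library under each alternative run. It was 38.2% against 6.13% with a sum of at least 5 and 34.1% against 3.99% after thinning. Among cells as deep as the shallowest syngeneic barcode it was 67.3% against 14.7%. The other 5-gene panel chose 146 of 262 allogeneic and 257 of 978 syngeneic cells. Its syngeneic share of 26.3% was larger than the 14.7% of the rule, so the gap was smaller with the panel. The type I list's median in members over interferon-low cells lay between 0.98 and 1.34 (allogeneic) and between 0.85 and 1.48 (syngeneic), where it was 1.48 with sums of at least 5 against 0 and 1.45 after thinning. Between the members of the libraries it was 0.048 with sums of at least 5 and reversed to -0.26 after thinning, and the cause was not tested. Of 779 values for 98 gene ratios, 595 stayed within the main interval, 174 left it and 10 reversed, meaning that a ratio of at least 2-fold changed sign. Counting smaller ratios too, 35 values had the other sign than the main one. The syngeneic ratio of Ccl5 was -0.034 with sums of at least 5 against 0, -0.14 thinned, -1.50 with the other panel, -0.30 without the top 5% of cells and -0.11 without other lineages. That of Stmn1 was -1.52 with sums of at least 5 and -0.31 without the top 5%, that of Myc was 0.061 with the other panel, and that of Ly6c2 was -0.19 without other lineages. Hist1h2ap between libraries was 0.16 without the top 5%. The cause was not tested. Depth limits genes under 50 UMIs, and 1 library per group leaves no replicate check.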
